A study of Mus musculus with 16 samples.

Results

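The neurotrophins are secreted growth factors of neurons, and their receptors fall into the Trk tyrosine kinases and the p75 receptor. Of the 7 genes described here, *Bdnf*, *Ntf3* and *Ntf5* encode the ligands, *Ntrk2* and *Ntrk3* the receptors TrkB and TrkC, *Ngfr* the p75 receptor (p75NTR) and *Sort1* the sorting receptor sortilin. Every probe whose symbol, or older alias with the same gene number, was one of these 7 was taken, which gave 17 of the 25697 probes of the array. Of the 17 probes, 14 were detected often enough to be tested, which took a detection p under 0.05 on 4 or more of the 16 arrays.

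Hippocampal RNA was taken on postnatal day 1 (P1) and postnatal day 30 (P30) from 4 mice of each genotype, WT and *Mef2c*-het, with 1 mouse on each array. The *Mef2c*-het mice carried 1 conventional allele of *Mef2c* that lacks exon 2 in every cell, on the C57BL/6J background, and the WT mice were their littermates. The labels call the *Mef2c*-het mice KO and give no sex, litter or treatment. They name a replicate number but not whether the mice of a group shared a litter, so the p-values measure the spread between these mice.

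Neurotrophins are made as precursors, which are cleaved by furin-like convertases inside the cell or by plasmin and matrix metalloproteases outside it. A mature neurotrophin binds its preferred Trk receptor, BDNF and NT-4 binding TrkB, and NT-3 binding TrkC, and so starts Ras-MAPK, PI3K-Akt and PLCγ signalling. The precursors bind p75NTR together with sortilin, a pairing known for promoting cell death, and sortilin also steers the BDNF precursor into the regulated secretory pathway. In the hippocampus BDNF and TrkB are best known for activity-dependent plasticity of synapses.

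Since *Bdnf* is transcribed from several alternative starts, RefSeq (GRCm38.p6) lists 7 promoter windows for it. Windows were found for 4 of the 7 genes and for 11 starts in all, the others being those of *Ntf3*, *Ntrk2* and *Ngfr*. In each, the 250 bases before the start were searched on both strands. The searches were for a cAMP response element, its variant, an E-box and a MEF2 site. MEF2 factors bind the MEF2 site, which was searched only as CTA, 4 letters of A or T, and TAG. The sequences below are those before the *Bdnf* start that lies first in the gene, at chr2:109674450-109674699, and before the only *Bdnf* start with a match, at chr2:109692186-109692435, both on the plus strand. Capitals mark the match.
Bdnf first start: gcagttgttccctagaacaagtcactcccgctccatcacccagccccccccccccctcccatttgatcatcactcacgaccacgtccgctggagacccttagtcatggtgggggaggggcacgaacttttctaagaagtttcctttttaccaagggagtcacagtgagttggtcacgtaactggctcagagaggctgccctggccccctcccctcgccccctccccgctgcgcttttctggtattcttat
Bdnf start with the match: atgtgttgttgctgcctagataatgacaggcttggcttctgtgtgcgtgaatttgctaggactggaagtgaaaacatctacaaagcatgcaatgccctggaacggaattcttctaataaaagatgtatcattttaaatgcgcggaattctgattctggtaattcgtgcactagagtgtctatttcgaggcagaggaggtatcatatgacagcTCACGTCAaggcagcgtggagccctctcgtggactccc

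The match is the response element variant TCACGTCA, 38 to 31 bases before the start. These letters were found in 0.35% of 32851 promoter windows of the same length. The E-box CACGTG was found once among the 11 windows, 231 to 226 bases before an *Ntf3* start, against 6.02% of all windows. The element TGACGTCA was in none of the 11 and in 1.55% of all windows. In the 1 form searched, the MEF2 site was in none of the 11 and in 0.508% of all windows. None of the matches overlapped another. A match describes letters and not a bound site, and which of these starts the array's *Bdnf* probes report on is not given in the sources used here.

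The arrays differed by age more than within an age. Between 12638 and 14150 probes were detected per array, and arrays correlated at 0.985 to 0.997 within an age and 0.921 to 0.944 between ages. Of 4 excitatory neuron markers, *Slc17a7* and *Camk2a* rose from P1 to P30 in WT by 3.40 and 3.93 (adjusted p = 2.91e-11 and 1.83e-12, limma), while *Neurod6* and *Prox1*, both known from hippocampal granule or pyramidal neurons, fell by 0.24 and 0.71 (adjusted p = 0.00905 and 0.000556, limma). All 4 were detected often enough to be tested, and none of them separates the hippocampus from all other forebrain. The 3 tested markers of progenitors and dividing cells fell. The summed signal of choroid plexus markers varied widely within groups, from 6260 to 31400 in WT and 1990 to 25500 in *Mef2c*-het mice at P1, and from 1160 to 22100 and 1870 to 4490 at P30. Within each age the arrays formed 2 clusters, the smaller of which held replicate 8 of both genotypes at P1, and replicates 6 and 7 of WT and replicate 7 of *Mef2c*-het at P30. These 5 arrays had a higher 5th percentile of intensity, 140 to 161 against 106 to 131 on the other arrays. By *Xist* and Y-linked signals, 1 of 4 WT and 2 of 4 *Mef2c*-het mice at P1 and all mice at P30 were male, so age and sex are partly mixed. The brightest *Mef2c* probe lay at 9.39 to 9.61 (log2) in WT and 9.15 to 9.73 in *Mef2c*-het mice at P1, and at 9.61 to 9.80 in WT and 8.97 to 9.92 in *Mef2c*-het mice at P30. The labelled genotypes thus overlapped in *Mef2c* signal at both ages, and whether its probes lie in the deleted exon is not given in the sources used here.

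**Figure D1:**
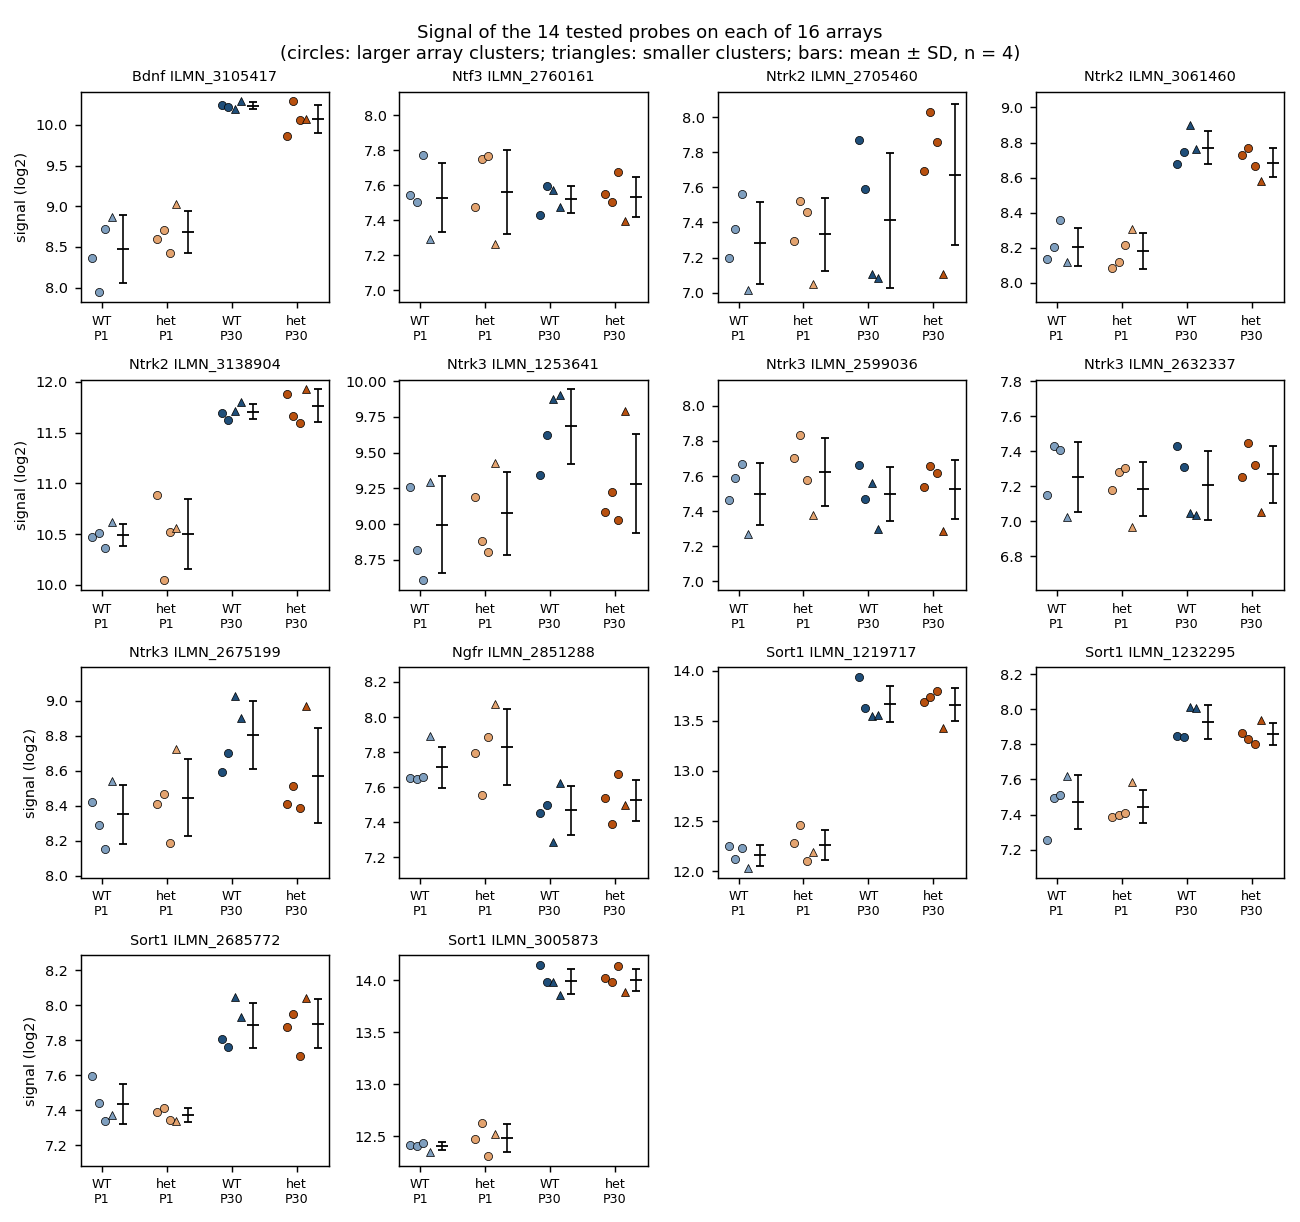
Log2 signal (y axis, one scale per panel) of each of the 14 tested probes in the 4 groups (x axis; het stands for *Mef2c*-het). Each point is 1 mouse, triangles are the 5 arrays of the smaller clusters, and the bars give mean ± SD with n = 4. The *Bdnf*, *Sort1* and 2 brighter *Ntrk2* probes were higher at P30 without overlap, which was not counted between the ages over all probes. WT and *Mef2c*-het points overlapped in every panel at both ages.

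The first comparison asked how the family changed between P1 and P30. *Bdnf*, 2 of 3 *Ntrk2* probes and all 4 *Sort1* probes rose from P1 to P30 in both genotypes, *Ngfr* fell in both, and 2 of 4 *Ntrk3* probes rose in WT. A probe is called here at an adjusted p under 0.05. Of the 14 tested probes, 9 (64.3%) were called higher and 1 lower in WT, where 59.7% of all 14777 tested probes were called, 28% as higher and 31.7% as lower. In *Mef2c*-het mice 7 of the 14 were called higher and 1 lower, where 58.3% of all probes were called, 26.9% as higher and 31.4% as lower. The median log2 difference of the 14 probes was 0.46 in WT and 0.38 in *Mef2c*-het mice, against -0.03 and -0.02 over all probes. Probes of the same gene are not independent, and 4 of the 9 rises in WT were those of *Sort1*. A probe that passes the detection filter through a single age tends to differ between the ages. Each tested member probe was detected on arrays of both ages, and these counts are a description. How often the ages stood apart without overlap over all probes was not counted, so non-overlap of a member is a description too. The tissue is a mixture, and fewer cells of a type cannot be told apart from less RNA per cell.

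*Bdnf*, the main activity-regulated neurotrophin of the forebrain, had the largest log2 rise of the tested probes in WT and, in *Mef2c*-het mice, the largest after those of the 2 bright *Sort1* probes. The tested probe (ILMN_3105417), assigned by the table to transcript variant 3, read 8.36, 7.94, 8.72 and 8.87 in the 4 WT mice at P1, in replicates 1, 4, 5 and 8. Signals here and below are log2 values after quantile normalization, on which a step of 1 is a 2-fold change. In WT mice at P30 it read 10.25, 10.22, 10.19 and 10.29, in replicates 2, 3, 6 and 7. The WT ages were far apart, and the spread was wider at P1, with an SD of 0.42 against 0.04 at P30. In *Mef2c*-het mice the signals were 8.60, 8.70, 8.42 and 9.03 at P1 (replicates 1, 2, 4 and 8) and 9.86, 10.29, 10.07 and 10.07 at P30 (replicates 3, 5, 6 and 7), the order kept below. The ages did not overlap in this genotype either. The log2 difference was 1.76 ± 0.17 (SE, n = 4 against 4), or 3.39-fold, in WT (adjusted p = 1.11e-07, limma) and 1.38 ± 0.17, or 2.61-fold, in *Mef2c*-het mice (adjusted p = 2e-06, limma). The two-sided exact permutation p was 0.0286 in both genotypes, the smallest that 4 against 4 arrays can give. The order of the group means was WT P1, *Mef2c*-het P1, *Mef2c*-het P30 and WT P30, and neighbours of the same age overlapped.

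The 2 other *Bdnf* probes gave almost no signal. ILMN_1246842 was detected on none of the 16 arrays, where its highest signal was 7.27, and ILMN_1214228 on 3 arrays, all at P30. The latter lay at 6.97 to 7.12 in WT at P1 and 7.27 to 7.46 in WT at P30. Neither was tested, and both carry another transcript assignment than the bright probe.

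*Ntf3*, which encodes NT-3 and is known in the dentate gyrus, was near the detection limit and level with age. Its probe ILMN_2760161 was detected on 14 of 16 arrays. Signals ranged from 7.29 to 7.77 in WT and from 7.27 to 7.76 in *Mef2c*-het mice at P1, and from 7.43 to 7.59 and from 7.40 to 7.68 at P30. The lowest mouse in each P1 group was replicate 8. The difference between the ages was within its SE in both genotypes, with a 95% confidence interval of -0.25 to 0.23 in WT and -0.27 to 0.21 in *Mef2c*-het mice. *Ntf5*, which encodes NT-4, the other TrkB ligand, was detected on no array, at 6.94 to 7.20, and was not tested.

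*Ntrk2* encodes TrkB, and its known truncated form without the kinase is abundant in astrocytes. The brightest probe, ILMN_3138904, assigned to transcript variant 1, read 10.47, 10.51, 10.36 and 10.62 in WT at P1 and 11.69, 11.62, 11.72 and 11.80 in WT at P30. The *Mef2c*-het values were 10.88, 10.04, 10.52 and 10.56 at P1 and 11.88, 11.66, 11.59 and 11.93 at P30. The ages were well apart, and the P1 *Mef2c*-het mice spread most, with an SD of 0.35. *Ntrk2* rose by 1.21 ± 0.13 in WT (adjusted p = 5.61e-07, limma), or 2.32-fold, and by 1.26 ± 0.13 in *Mef2c*-het mice (adjusted p = 3.65e-07, limma), or 2.40-fold.

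The second variant 1 probe of *Ntrk2*, ILMN_3061460, also rose in both genotypes. It read 8.14, 8.20, 8.36 and 8.12 in WT at P1 and 8.68, 8.74, 8.90 and 8.76 in WT at P30. Its *Mef2c*-het signals were 8.08, 8.12, 8.22 and 8.31 at P1 and 8.73, 8.77, 8.67 and 8.58 at P30. No P1 value reached a P30 value. The log2 differences were 0.57 ± 0.07 in WT (adjusted p = 3.74e-06, limma) and 0.50 ± 0.07 in *Mef2c*-het mice (adjusted p = 1.4e-05, limma), and 0.87 and 0.79 with normexp background correction, which removes an estimated background before the logarithm.

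The last *Ntrk2* probe, ILMN_2705460, which the table takes from another transcript collection, was not called. It read 7.20, 7.36, 7.56 and 7.02 in WT at P1 and 7.87, 7.59, 7.11 and 7.08 in WT at P30. Among *Mef2c*-het mice the signals were 7.30, 7.52, 7.46 and 7.05 at P1 and 7.70, 8.03, 7.86 and 7.10 at P30. In every group its lowest values were those of the smaller array clusters. The differences were 0.13 ± 0.20 in WT (adjusted p = 0.612, limma) and 0.34 ± 0.20 in *Mef2c*-het mice (adjusted p = 0.161, limma). With the array clusters as a block they were 0.21 ± 0.09 and 0.26 ± 0.09, and both were called (adjusted p = 0.045 and 0.0188, limma). Without *Mef2c*-het P30 replicate 7 the *Mef2c*-het difference was 0.53 and was called (adjusted p = 0.0203, limma).

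Astrocyte markers also rose from P1 to P30, as *Ntrk2* did. In WT, 29% of all tested genes were called higher at P30 and 32.8% lower. Of 5 astrocyte markers 4 were called higher in WT and none lower. Their summed linear signal was 21600 to 25000 in WT at P1 and 34400 to 36000 at P30, and 22600 to 26100 and 32000 to 35900 in *Mef2c*-het mice. The exception was *Aldh1l1*, at -0.14 in WT (adjusted p = 0.308, limma). Their part in the *Ntrk2* rise was not tested.

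*Ntrk3* encodes TrkC, the receptor of NT-3, and its probes did not move alike. The brightest, ILMN_1253641, assigned to transcript variant 1, read 9.26, 8.82, 8.61 and 9.30 in WT at P1 and 9.34, 9.62, 9.87 and 9.90 in WT at P30. The *Mef2c*-het values were 9.19, 8.88, 8.80 and 9.43 at P1 and 9.09, 9.23, 9.03 and 9.79 at P30. The WT ages were apart by a narrow margin, while the *Mef2c*-het ages overlapped. The difference was 0.69 ± 0.20 in WT (adjusted p = 0.00624, limma) and 0.21 ± 0.20 in *Mef2c*-het mice (adjusted p = 0.389, limma).

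The other variant 1 probe of *Ntrk3*, ILMN_2675199, followed the same course. It read 8.42, 8.29, 8.15 and 8.54 in WT at P1 and 8.59, 8.70, 9.03 and 8.90 in WT at P30. Its *Mef2c*-het signals were 8.41, 8.47, 8.19 and 8.72 at P1 and 8.41, 8.51, 8.39 and 8.97 at P30. The WT difference was 0.45 ± 0.14 (adjusted p = 0.0103, limma) and the *Mef2c*-het difference 0.12 ± 0.14 (adjusted p = 0.476, limma). With sex as a covariate the WT differences of the 2 probes were 0.49 and 0.24 and were no longer called (adjusted p = 0.108 and 0.233, limma). With the array clusters as a block they were 0.62 and 0.40 and were called (adjusted p = 0.000157 and 0.000176, limma). The *Mef2c*-het differences with that block were 0.27 and 0.18 and were not called (adjusted p = 0.052 and 0.0565, limma).

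That *Ntrk3* was called in WT and not in *Mef2c*-het mice does not show that the genotypes differed. The difference of the age change between genotypes was -0.48 ± 0.28 for ILMN_1253641 (95% confidence interval -1.07 to 0.11, unadjusted p = 0.102, adjusted p = 0.998, limma). For ILMN_2675199 it was -0.33 ± 0.20 (-0.75 to 0.09, unadjusted p = 0.115, adjusted p = 0.998, limma). Both probes were highest, in each of the 4 groups, on the arrays of the smaller clusters. *Ntrk3* ILMN_2632337 was lowest on those same arrays in each group.

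The 2 *Ntrk3* probes assigned to transcript variant 2 showed no called change. ILMN_2599036 was detected on 13 arrays and ranged from 7.27 to 7.83. ILMN_2632337 was detected on 4 arrays and ranged from 6.97 to 7.45. Their age differences lay between -0.10 and 0.09 in the 2 genotypes, each within its SE.

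*Ngfr*, which encodes p75NTR and is known from the developing brain and from injury, was the only member with a called fall. Its probe ILMN_2851288 read 7.65, 7.65, 7.66 and 7.89 in WT at P1 and 7.45, 7.50, 7.29 and 7.63 in WT at P30. Among *Mef2c*-het mice the signals were 7.79, 7.56, 7.88 and 8.08 at P1 and 7.54, 7.39, 7.67 and 7.50 at P30. The WT ages were apart by 0.02 and the *Mef2c*-het ages overlapped, and replicate 8 was the highest P1 mouse in both genotypes. *Ngfr* fell by 0.25 ± 0.10 in WT (adjusted p = 0.0497, limma), just under the threshold, and by 0.30 ± 0.10 in *Mef2c*-het mice (adjusted p = 0.0183, limma). With normexp background correction the differences were -0.68 and -0.74.

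The fall of *Ngfr* rested on a thin margin. The WT call remained with each array left out in turn only where that array was *Mef2c*-het P1 replicate 2 or 8, *Mef2c*-het P30 replicate 6 or WT P30 replicate 7, and was lost without any of the other 12 arrays, with differences from -0.19 to -0.27 and adjusted p from 0.0508 to 0.154 (limma). It was also lost with no filter (adjusted p = 0.0732, limma) and with sex as a covariate (-0.31, adjusted p = 0.0617, limma). The *Mef2c*-het call was lost without *Mef2c*-het P30 replicate 5 (-0.26, adjusted p = 0.0596, limma) and without *Mef2c*-het P1 replicate 8 (-0.22, adjusted p = 0.0697, limma).

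*Sort1*, the sortilin gene, rose on all 4 of its probes and had the smallest p-values of the family. Its brightest probe, ILMN_3005873, read 12.42, 12.41, 12.44 and 12.35 in WT at P1 and 14.15, 13.98, 13.98 and 13.85 in WT at P30. The *Mef2c*-het values were 12.47, 12.63, 12.31 and 12.51 at P1 and 14.02, 13.98, 14.14 and 13.88 at P30. The ages were separated by over 1 log2 unit in each genotype. *Sort1* rose by 1.59 ± 0.08, or 3.01-fold, in WT (adjusted p = 2.91e-11, limma) and by 1.53 ± 0.08, or 2.88-fold, in *Mef2c*-het mice (adjusted p = 5.07e-11, limma).

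A second bright *Sort1* probe, ILMN_1219717, gave 12.25, 12.13, 12.23 and 12.03 in WT at P1 and 13.94, 13.63, 13.55 and 13.56 in WT at P30. Its *Mef2c*-het signals were 12.28, 12.46, 12.10 and 12.20 at P1 and 13.69, 13.74, 13.80 and 13.42 at P30. It rose by 1.51 ± 0.10 in WT (adjusted p = 2.1e-09, limma) and by 1.40 ± 0.10 in *Mef2c*-het mice (adjusted p = 5.37e-09, limma). The bright probes thus moved nearly alike.

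The 2 dim *Sort1* probes rose less on this scale, and no P1 value of either reached a P30 value. ILMN_1232295 rose from a mean of 7.47 to 7.93 in WT and from 7.44 to 7.86 in *Mef2c*-het mice, differences of 0.46 ± 0.08 and 0.42 ± 0.08 (adjusted p = 7.39e-05 and 0.000194, limma). ILMN_2685772 rose from 7.44 to 7.89 in WT and from 7.37 to 7.89 in *Mef2c*-het mice, differences of 0.45 ± 0.08 and 0.52 ± 0.08 (adjusted p = 0.000141 and 3.12e-05, limma). With normexp background correction the 4 differences were 1.14, 1.08, 1.15 and 1.37, closer to those of the bright probes. Those of the bright probes were 1.61, 1.55, 1.53 and 1.43 with that correction.

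Myelin markers also rose from P1 to P30, as *Sort1* did, and so did markers of other cells. All 6 oligodendrocyte markers were called higher at P30 in WT, with a median log2 difference of 5.55, and their summed signal went from 1170 to 1420 at P1 to 65300 to 73100 at P30. In *Mef2c*-het mice the sums were 1160 to 1350 and 63400 to 72400. Of the 4 excitatory neuron markers 2 were called higher and 2 lower in each genotype, and their summed signal was 2650 to 3880 in WT at P1 and 21800 to 25500 at P30. All 4 tested markers of GABAergic interneurons and 4 of 5 markers of microglia were called higher in WT as well, against 29% of all tested genes. The part of any of these in the *Sort1* rise was not tested.

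**Figure D2:**
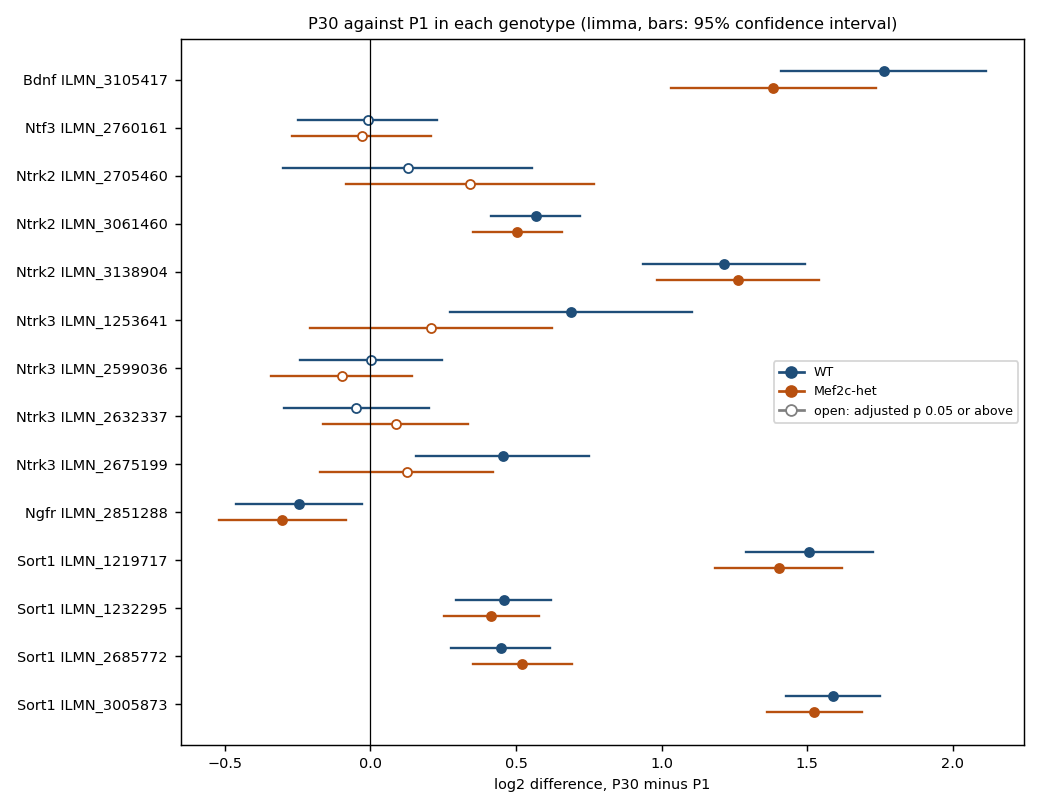
Log2 difference between P30 and P1 (x axis) of the 14 tested probes (y axis) in WT and *Mef2c*-het mice, with 95% confidence intervals from limma; filled points have an adjusted p under 0.05. *Bdnf*, *Ntrk2* ILMN_3138904 and the 2 bright *Sort1* probes lay between 1.21 and 1.76 in both genotypes, and *Ngfr* was the only called fall, at -0.25 and -0.30.

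The second comparison asked whether loss of 1 *Mef2c* allele changed the family. No member probe was called at either age, and the largest log2 difference between genotypes was that of *Ntrk3* ILMN_1253641 at P30. At P1, 0 of 14 probes were called with limma and 0 had an unadjusted p under 0.05, where 0.0135% of all tested probes were called and 2.28% had such a p. At P30, 0 of 14 were called and 0 had an unadjusted p under 0.05, against 0.00677% and 2.84% of all probes. The *Mef2c*-het and WT arrays overlapped for each of the 14 probes. Over all tested probes they stood apart for 1.42% at P1 and 1.89% at P30. With such small shares, the overlap of all 14 does not set the members apart from other probes. For the change of the genotype effect between the ages, 0 of 14 were called and 0 had an unadjusted p under 0.05, against 0% and 2.96% of all probes.

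At P1 the differences ran from -0.07 to 0.21. *Bdnf* had the largest and the smallest p, 0.21 ± 0.17 higher in *Mef2c*-het mice (95% confidence interval -0.14 to 0.57, unadjusted p = 0.215, adjusted p = 1, limma, exact permutation p = 0.429). At P30 *Bdnf* was lower in *Mef2c*-het mice by a difference of -0.17 ± 0.17 (-0.52 to 0.19, adjusted p = 0.994, limma). The change of the *Bdnf* genotype effect was -0.38 ± 0.23 (-0.88 to 0.12, unadjusted p = 0.125, adjusted p = 0.998, limma), and -0.27 with sex as a covariate.

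At P30 the differences ran from -0.40 to 0.26. *Ntrk3* ILMN_1253641 had -0.40 ± 0.20 (95% confidence interval -0.82 to 0.02, unadjusted p = 0.058, adjusted p = 0.994, limma, exact permutation p = 0.114). Of the 4 *Mef2c*-het mice, 3 read 9.03 to 9.23, under all 4 WT mice, and replicate 7 read 9.79, among them. The second variant 1 probe had -0.23 ± 0.14 (-0.53 to 0.06, adjusted p = 0.994, limma), with the same mouse high, at 8.97. Without *Mef2c*-het P30 replicate 7 the difference of ILMN_1253641 was -0.57 (unadjusted p = 0.0073, adjusted p = 0.588, limma), and with the array clusters as a block it was -0.27 ± 0.12 (adjusted p = 0.999, limma). The difference was negative under each of the 26 alternatives, from -0.57 to -0.27, and called under none. *Mef2c*-het P30 replicate 7 also had the highest *Mef2c* signal of its group on both tested *Mef2c* probes, 8.95 and 9.92. The dimmer of these *Mef2c* probes was highest on the arrays of the smaller clusters in each group. Replicate 7 is the only *Mef2c*-het array of the smaller cluster at P30, which also holds WT replicates 6 and 7. Without it that cluster is present in WT alone.

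For the other members the intervals give the range of a genotype difference on the log2 scale without background correction. At P30 they ran from -0.22 to 0.34 for *Ntrk2* ILMN_3138904, from -0.15 to 0.18 for *Sort1* ILMN_3005873, from -0.22 to 0.25 for *Ntf3* and from -0.16 to 0.28 for *Ngfr*. At P1 the same probes had intervals of -0.27 to 0.29, -0.08 to 0.24, -0.20 to 0.27 and -0.10 to 0.33. *Ntrk2* ILMN_2705460 was the least precise, at -0.17 to 0.69 for P30. With normexp background correction its P30 difference was 0.69, at the upper end of that interval, and the P1 difference of *Ngfr* was 0.24. The intervals therefore do not bound the RNA difference of dim probes.

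**Figure D3:**
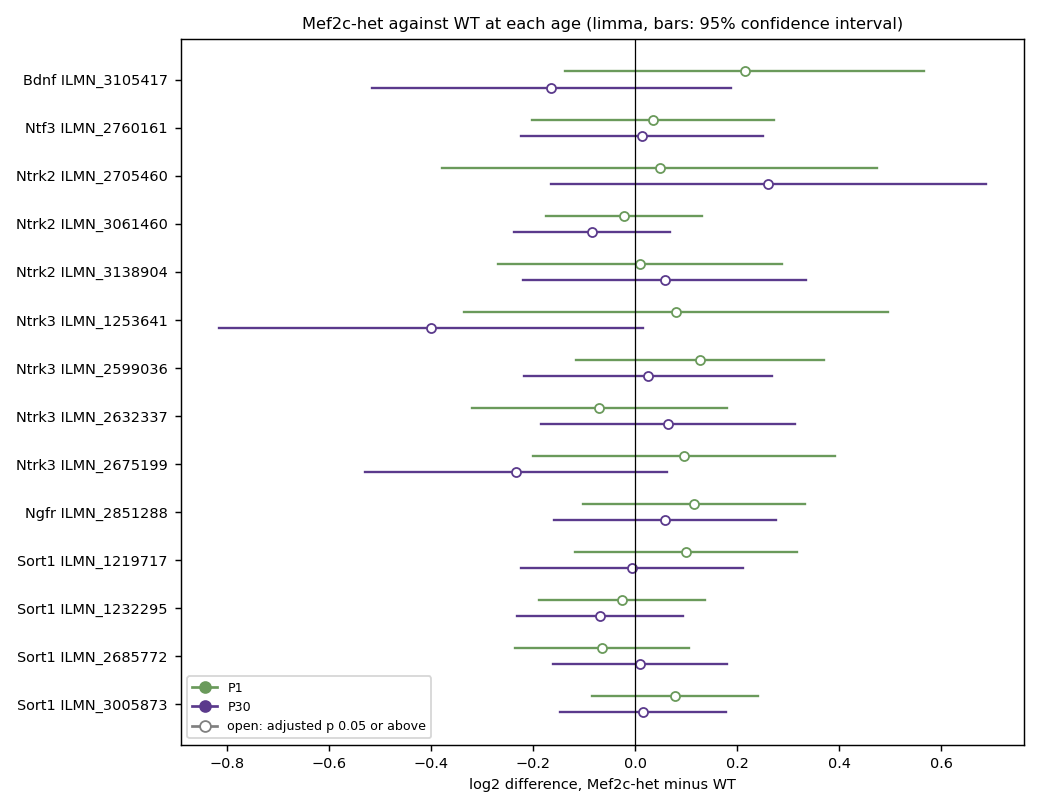
Log2 difference between *Mef2c*-het and WT mice (x axis) of the 14 tested probes (y axis) at P1 and P30, with 95% confidence intervals from limma; open points are not called. Every interval holds 0, and the lowest difference is that of *Ntrk3* ILMN_1253641 at P30, -0.40.

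The partners of the family were described from 7 pathway lists, beside the 10803 tested genes. At P30 in WT, 29% of these genes were called higher and 32.8% lower, with a median of -0.03. In *Mef2c*-het mice 27.9% were called higher and 33% lower, with a median of -0.03. Of genes that process and sort proneurotrophins, 12 of 20 were tested, and 6 were called higher and 1 lower in WT, with a median of 0.33. *Sorl1* and *Sorcs3*, relatives of sortilin, rose by 2.95 and 1.60 and the convertase gene *Pcsk2* by 1.88 (adjusted p = 2.95e-12, 2.59e-10 and 3.76e-08, limma). *Mmp9*, whose protease cleaves proBDNF outside the cell, fell by 1.03 (adjusted p = 2.52e-08, limma). In *Mef2c*-het mice 7 were called higher and 2 lower, *Sorl1* again leading at 2.78 and *Mmp9* at -0.84.

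Among the co-receptors and adaptors of p75NTR, 4 of 16 tested genes were called higher and 5 lower in WT, with a median of 0.03. *Rtn4rl1*, a relative of the Nogo receptor, rose by 1.37 and *Rtn4r*, the Nogo receptor that pairs with p75NTR, by 0.23 (adjusted p = 4.36e-10 and 0.00813, limma). The adaptor gene *Traf4* fell by 2.28, the actin bundler *Fscn1* by 0.84 and *Nradd*, a p75NTR homologue, by 0.58 (adjusted p = 2.59e-12, 1e-07 and 5.09e-06, limma). In *Mef2c*-het mice 2 were called higher and 5 lower.

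Of the Trk adaptors and signal transducers, 10 of 34 tested genes were called higher and 13 lower in WT, and 6 and 14 in *Mef2c*-het mice. *Itpr1*, the calcium channel of the PLCγ branch, rose by 2.09 and *Pik3cb* by 1.18 in WT (adjusted p = 1.55e-10 and 3.74e-06, limma). *Nras* fell by 1.11 and *Rps6ka1* by 0.75 (adjusted p = 2.26e-09 and 9.96e-05, limma). The list median was -0.13. Of 14 tested genes listed as antagonists of Trk signalling, 5 were called higher and 3 lower in WT. Among them were the Ras inhibitor gene *Spred1* at 0.83 and *Dusp4* at -0.57 (adjusted p = 2.2e-07 and 4.26e-05, limma). The list also holds *Slitrk5*, at 0.84 (adjusted p = 5.78e-05, limma). It encodes a BDNF-linked membrane protein and is not an antagonist in the strict sense.

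The regulators of *Bdnf* transcription split. Of 16 tested, 4 were called higher and 3 lower in WT and 5 and 4 in *Mef2c*-het mice. *Bhlhe40* rose by 1.67, the CREB coactivator gene *Crtc1* by 0.89 and the activity-induced factor gene *Npas4* by 0.61 in WT (adjusted p = 1.18e-05, 3.16e-07 and 7.53e-06, limma). *Hdac2* fell by 1.28, *Nfatc4* by 1.19 and the E-box factor gene *Usf1* by 0.50 (adjusted p = 1.06e-07, 2.76e-08 and 4.94e-05, limma).

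Of genes known to be induced by BDNF in neurons, 16 of 18 were tested, and 15 were called higher and none lower at P30 in each genotype, a share of 93.8%, with a median of 1.51 in WT and 1.40 in *Mef2c*-het mice. *Arc*, an immediate early gene of synapses, rose by 3.57 in WT and 3.39 in *Mef2c*-het mice (adjusted p = 6.35e-14 and 1.24e-13, limma). *Scg2* rose by 2.24 and 1.97, and *Nptx1*, which gathers AMPA receptors, by 2.13 and 2.03 (adjusted p from 3.6e-09 to 4.92e-10, limma). The exceptions were *Cort* in WT, at 0.04, and *Inhba* in *Mef2c*-het mice, at 0.01. These genes respond to neuronal activity as well as to BDNF, *Sst* is also an interneuron marker, and the list is described and not tested.

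Other neurotrophic factors moved both ways, with 3 of 12 tested genes called higher and 3 lower in WT. *Fgf1* rose by 2.73 and the GDNF family receptor gene *Gfra4* by 0.93 (adjusted p = 6.95e-15 and 3.05e-09, limma). The midkine gene *Mdk* fell by 2.07 and its relative *Ptn*, the pleiotrophin gene, by 0.61 (adjusted p = 4.37e-12 and 9.51e-05, limma). In *Mef2c*-het mice 3 were called higher and 2 lower.

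No gene of the 7 lists was called between genotypes at either age. At P1 the numbers with an unadjusted p under 0.05 in limma were 1 of 34 Trk adaptors, 2 of 16 genes induced by BDNF and 1 of 12 other neurotrophic genes, and none in the other lists, against 251 of all 10803 tested genes. *Frs3*, a Trk docking protein gene, had -0.22 and *Cort* -0.39 (unadjusted p = 0.00622 and 0.00902, both adjusted p = 1, limma). At P30 the numbers were 2, 1 and 1 in the same lists, against 324 of all tested genes. *Pdpk1*, the kinase that activates Akt, had -0.63, *Fgf1* -0.23 and *Inhba* -0.28 in *Mef2c*-het against WT mice (unadjusted p = 0.00293, 0.00301 and 0.0255, each adjusted p = 0.994, limma).

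**Figure D4:**
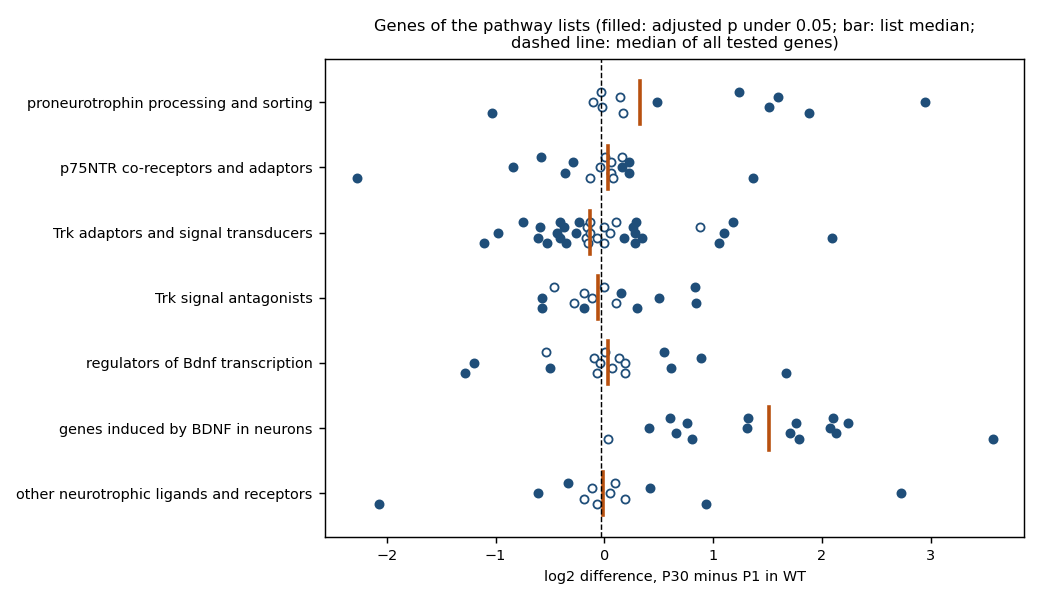
Log2 difference between P30 and P1 in WT (x axis) of each tested gene of the 7 pathway lists (rows); filled points have an adjusted p under 0.05, bars are list medians and the dashed line is the median of all tested genes, -0.03. The genes induced by BDNF lie above 0 with a median of 1.51, while the other lists spread to both sides.

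Over the 16 arrays the genes most like *Bdnf* in log2 signal, of 10796 tested genes outside the family, were *Tlcd4*, *Pcdh20* and *Slc2a3*, the neuronal glucose transporter gene, with Pearson r of 0.994, 0.993 and 0.988. *Tlcd4* and *Pcdh20* also led in the deviations from the group means, at 0.936 and 0.913. Leading in the deviations were *Rfx2* for *Ntrk2* and *Dnajc14* for *Sort1*, at 0.944 and 0.909. For *Ntrk2* the most similar in log2 signal were *Slc39a12*, the metallothionein gene *Mt3* and *Slc25a18*, at 0.987 to 0.988. For *Sort1* they included *Ncdn* and *Chst1*, each at 0.995. The lowest of the leading values were those of *Ntf3*, with *Adprhl1* at 0.835, and of *Ngfr*, with *Nek11* at 0.875. In log2 signal, any gene with a large rise between the 2 ages correlates with *Bdnf*, *Ntrk2* and *Sort1*. The deviations leave out the group means but not the array clusters. All values share the same arrays, and r is given as a description of 16 arrays.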

How the data were processed

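RNA of 16 hippocampi was hybridised to beadchips (Illumina MouseRef-8 v2), 1 mouse per array. The deposited table has 25697 probes. For each array it holds a linear bead intensity, which the authors deposited without normalization between arrays. Beside it stands a deposited detection p-value, which compares the probe with negative controls. The deposited bead standard error is a signal on the scale of the intensity, and the deposited bead number is a count. Local background subtraction is not given in the sources used here. The submitters' processing notes name lumi and limma, and the study's methods state log2 transformation and quantile normalization.

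Here the deposited intensities of all 16 arrays were log2 transformed and quantile normalized, and limma 3.58.1 in R 4.3.3 was run on the 14777 probes whose detection p was under 0.05 on 4 or more arrays (lmFit and eBayes, 4 group means, two-sided). P-values were adjusted by Benjamini-Hochberg over all probes tested, and a probe was called at an adjusted p under 0.05. Probes were named through the RefSeq gene table of GRCm38.p6, which matched 25376 of 25697. Every probe of the 7 genes described is named; of the pathway lists, the 3 largest rises and the 3 largest falls among called genes are candidates for naming in each age comparison, and the gene of smallest p where none was called. Each gene of a list is represented by its tested probe of highest mean signal. A further gene that the rule takes, and some genes of the lists, are not reported here. The members and lists were chosen with earlier results of these data known. For each member probe an exact permutation test (two-sided, 4 against 4 arrays) was added, with 0.0286 as its smallest possible p. Alternatives were cyclic loess, median scaling, normexp background correction with an offset of 16, no filter, a detection p under 0.01, variances with a trend or robust, a covariate for sex, the array clusters as a block, a replicate block, the arrays of an age alone, and leaving out each array. The steps were tested on simulated data. Arrays had a median of 36 to 39 beads per probe and a median bead standard error of 3.38% to 4.05%. The precision of each comparison is limited by its 4 arrays per group.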

Additional observations from a re-analysis of the deposited data

Results flagged for a closer look

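In 2 of 56 groups of 4 arrays, 1 mouse stood apart from the other 3 by Dixon's ratio of the gap to the nearest value over the group's range; about 1 in 20 groups does so by chance. For *Ngfr* ILMN_2851288, WT P1 replicate 8 read 7.89 and the nearest mouse 7.66, a ratio of 0.942. Without it the WT fall of *Ngfr* was -0.19 and was not called (adjusted p = 0.145, limma). For *Sort1* ILMN_1232295, *Mef2c*-het P1 replicate 8 read 7.58 and the nearest mouse 7.41, a ratio of 0.875. Both mice are on arrays of the smaller cluster at P1, and the cause was not tested.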

How the results depend on the processing

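The number of member probes called between ages was 10 in WT and 8 in *Mef2c*-het mice. Over the alternatives it ranged from 7 (sex as a covariate) to 11 (array clusters as a block) in WT and from 8 to 9 in *Mef2c*-het mice, and leaving out 1 array gave 9 to 10 and 7 to 9. Of the 18 called member values none changed direction and 14 stayed past the threshold under every alternative run. The 4 others were those of *Ntrk3* ILMN_1253641 and ILMN_2675199 in WT and of *Ngfr* in both genotypes. No member was called between genotypes under any alternative. Of 39 member differences smaller than their SE, 26 changed sign under at least 1 alternative. The count of all probes called between genotypes moved between 0 and 3 at P1 and between 0 and 2 at P30. Of 73 called values of list genes named by the rule, 5 lost the call under at least 1 alternative (*Traf6*, *Nedd4* and *Il6st* in WT, *Rasa1* and *Il6st* in *Mef2c*-het mice) and none changed sign. Replicate numbers are shared by 6 same-age pairs, whose deviations correlated from -0.522 to 0.82. The highest were those of replicates 7 and 8, at 0.697 and 0.82, where both arrays lay in the smaller clusters. These correlations therefore cannot show whether mice of a number were paired, and the main fit treated them as unpaired. A replicate block left 0 member probes called at P1, at P30 and for the change between the ages. With this replicate block *Ntrk3* ILMN_1253641 had -0.42 at P30 (adjusted p = 0.865, limma). A block for the chip could not be run, since the columns name no chips. Dim probes are limited by background: *Ntf5* and *Bdnf* ILMN_1246842 were detected on no array, and *Bdnf* ILMN_1214228 on only 3.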
